A study of Homo sapiens with 22 samples.

Results

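MEIS1, MEIS2, NR2F2, NRIP1 and TGM2 are regulators that respond to all-trans retinoic acid (ATRA) in many cell types. They are described here through the regions of H3R2me2a, asymmetric dimethylation of arginine 2 of histone H3, that lie nearest to them. A region belonged to a gene when the authors' promoter or enhancer list named that gene as nearest. This rule gave 9 of 8819 regions, 4 for MEIS1, 2 for NRIP1 and 1 each for MEIS2, NR2F2 and TGM2. The genes were selected on having regions in these same lists, with the tags and clusters of those regions known from earlier results, so their values are a description and carry no test.

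The study used chromatin immunoprecipitation and sequencing in NT2/D1, a pluripotent human embryonal carcinoma line that differentiates when given ATRA. Its 22 samples cover H3R2me2a, H3K27ac, H3K4me1, H3K4me3 and IgG in CRISPR/Cas9 control cells and in cells with a CRISPR/Cas9 deletion of PRMT6. The region lists came from 2 of them, the H3R2me2a libraries of CRISPR/Cas9 control cells grown without ATRA and of the same cells given 1 µM ATRA for 3 days, both with a rat monoclonal antibody made in the laboratory. The other 20 samples were not analysed here, so no value below shows dependence on PRMT6. There was 1 library per condition, so no difference has a replicate check. Expression was not measured in these files.

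PRMT6 is the arginine methyltransferase that places H3R2me2a, close to lysine 4 of the same histone tail, whose methylation marks promoters and enhancers. Retinoic acid acts through nuclear receptors bound to DNA, and early targets include transcription factors that set position and cell fate. MEIS1 and MEIS2 are TALE homeodomain proteins that bind DNA together with HOX proteins. NR2F2 (COUP-TFII) is an orphan nuclear receptor that can bind the same direct repeats as retinoic acid receptors. NRIP1 (RIP140) is a corepressor recruited by ligand-bound nuclear receptors, and TGM2 is tissue transglutaminase, an enzyme that crosslinks proteins.

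MEIS1 had a region at the start that RefSeq gives for the gene, and MEIS2 had none there, so the promoters of these paralogs are shown side by side. The RefSeq windows (GRCh38.p14) run from 250 bases before to 50 after a start. They lie at chr2:66434875-66435174 on the plus strand for MEIS1, and at chr15:37099057-37099356 and chr15:37098647-37098946 on the minus strand for MEIS2. Capitals mark CpG dinucleotides.
MEIS1: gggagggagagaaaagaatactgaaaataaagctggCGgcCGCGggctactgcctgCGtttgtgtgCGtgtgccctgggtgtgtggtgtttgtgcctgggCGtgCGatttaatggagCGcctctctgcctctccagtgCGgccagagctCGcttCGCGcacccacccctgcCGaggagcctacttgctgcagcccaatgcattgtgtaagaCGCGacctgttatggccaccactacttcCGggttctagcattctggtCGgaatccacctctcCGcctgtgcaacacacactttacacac
MEIS2 upstream start: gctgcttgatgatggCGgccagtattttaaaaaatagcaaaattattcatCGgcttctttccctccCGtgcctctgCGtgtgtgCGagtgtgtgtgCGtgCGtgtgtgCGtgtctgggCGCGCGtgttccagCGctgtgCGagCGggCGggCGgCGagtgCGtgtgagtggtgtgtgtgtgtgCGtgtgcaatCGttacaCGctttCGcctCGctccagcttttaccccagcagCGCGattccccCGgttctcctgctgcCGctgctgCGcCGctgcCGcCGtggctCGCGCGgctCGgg
MEIS2 downstream start: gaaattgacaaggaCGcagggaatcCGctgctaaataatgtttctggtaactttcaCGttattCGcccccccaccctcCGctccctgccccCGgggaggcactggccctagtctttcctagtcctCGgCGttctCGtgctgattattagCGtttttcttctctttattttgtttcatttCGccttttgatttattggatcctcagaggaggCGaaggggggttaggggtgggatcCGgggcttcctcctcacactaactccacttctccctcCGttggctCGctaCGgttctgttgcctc

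The MEIS1 window held 18 CpGs, and the MEIS2 windows held 35 and 16, against a median of 14 in 35116 windows of the same length. RefSeq windows matched 4 of the 5 genes (8 windows), and TGM2 had no entry. None of the 8 windows held, on either strand, the nuclear receptor half-sites AGGTCA or GGGTCA or the TALE core TGACAG, which occur in 13.8%, 14.1% and 15.8% of all windows. A direct repeat of AGGTCA with 0 to 5 bases between, which contains the first half-site, occurs in 0.0712%. These letters describe 300 bases at each start and say nothing of the rest of the genes. The sequence under the regions themselves was not analysed here, because the regions are on hg19 and the genome at hand is GRCh38.

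All 9 regions were in cluster III, which holds 73.9% of all regions and was deposited under the library with ATRA. None was in clusters I or II, deposited under the library without ATRA. The enhancer list held 8 of the 9 (88.9%, exact 95% interval 51.8 to 99.7), against 58.5% of cluster III, which the interval includes. Here and below, intervals of shares treat regions as independent, although MEIS1 and NRIP1 each had more than 1. The only promoter-list region was the one at the MEIS1 start. Of the 8 enhancer-list regions, 4 lay in the authors' start windows (a class whose header gives 1250 bp, though 1 region, at NRIP1, lay 1293 bp from the start named), a class with 13.6% of the enhancer-list regions of cluster III. Enhancer-list regions of these genes could thus lie close to an annotated start. More than 1 region was named for MEIS1 and NRIP1, as for 18.1% of the 6697 named genes, and 4 or more for MEIS1, as for 2.82%.

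Each cluster III region carries a pair of tag counts (reads assigned to the region). MACS tags come with the cluster III list of the library with ATRA. The column named tagcount comes with the promoter and enhancer lists, and its library is not stated. At the 202 cluster I regions tagcount was 0 to 8 tags above the MACS tags of the library without ATRA (median 3), so it is read below as a count in that library, with this reservation. Sequencing depth is unknown. The cluster III list was deposited under the library with ATRA, and the rule that made it, which may have used the tags with ATRA, is not given. A ratio of MACS tags to tagcount above 1 was found at all 9 regions and is shared by 98.4% of cluster III, and each ratio is set beside the other cluster III regions. Intervals are exact, at 95%, and cover counting error only.

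MEIS1 had the strongest of the 9 regions. At its start (chromosome 2, 66661928 to 66662789, summit 313 bp into the region) there were 86 MACS tags and a tagcount of 52. The region lay 16 bp upstream of the start of a MEIS1 transcript that GENCODE 44 calls a retained intron, and in GRCh38 that start is 44 bp downstream of the RefSeq start. Its MACS tags were at percentile 84.6 of cluster III, meaning that 84.6% of regions had fewer, and its tagcount was at percentile 90.9. Both counts were thus high, and the ratio was 1.65 (1.16 to 2.38), at percentile 40.6 of promoter-list regions. Per length, its 99.8 MACS tags per kb were near the cluster III median of 97.3, and its width of 862 bp was at percentile 90.6.

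The other 3 MEIS1 regions followed inside a stretch of 75.2 kb, with gaps of 33.5, 20.3 and 19.0 kb between neighbours. The first intronic region (66696311 to 66696901), 7892 bp downstream of an internal transcript start, had 38 MACS tags and a tagcount of 8. The second (66717171 to 66717638), 5810 bp upstream of another internal start, had 36 and 11. The last (66736655 to 66737084), 831 bp downstream of a further internal start, had 46 and 22. GENCODE 44 gives these 3 transcripts no defined coding sequence.

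The ratio of MACS tags to tagcount varied along MEIS1 in its point values, but the intervals of all its regions overlapped. The ratio was 4.75 (2.18 to 11.8) at the first intronic region, 3.27 (1.63 to 7.13) at the second and 2.09 (1.23 to 3.65) at the last. Among enhancer-list regions of cluster III these were at percentiles 77.4, 61 and 36.3. The start region is in the promoter list, whose ratios are lower in general. The interval of the first intronic region and that of the start overlapped by a narrow margin. MACS tags differed little between the 3 later regions, and tagcount was lowest at the intronic ones, at percentiles 5.32 and 11.9 of cluster III, against 41.9 at the last.

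MEIS2 had 1 region (chromosome 15, 37189149 to 37189556), with 40 MACS tags and a tagcount of 5. Its ratio of 8.0 (3.16 to 26.0) was the highest of the 9 regions and at percentile 91.4 of enhancer-list regions in cluster III. The difference lay in tagcount, which was at percentile 1.66 of all cluster III regions, promoter list included. MACS tags were at percentile 26.1 of the same regions. The region was 6 bp from a transcript start, but of a retained-intron transcript whose start in GRCh38 lies 201956 and 201546 bp downstream of the MEIS2 starts shown above. It was thus in a start window and far inside the gene, and the next region toward the RefSeq starts was named SPRED1, 1350 kb away.

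NR2F2 had 1 region (chromosome 15, 96874471 to 96874919), 672 bp downstream of the start of a protein-coding transcript and in the enhancer list. In GRCh38 that start lies 1865 and 3065 bp upstream of the RefSeq starts of NR2F2 in the table. There were 43 MACS tags and a tagcount of 26, a ratio of 1.65 (0.993 to 2.80) whose interval reaches below 1. The ratio was at percentile 21.7 of enhancer-list regions, on the low side of them.

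NRIP1 had a region in the start window, 1293 bp upstream of a protein-coding transcript (chromosome 21, 16375815 to 16376278), and one in an intron 14781 bp downstream of the same start (16359642 to 16360051). The first had 44 MACS tags and a tagcount of 22, and the second had 32 and 16. Both ratios were 2.0, with intervals of 1.17 to 3.50 and 1.07 to 3.90. These regions are 15.8 kb apart and had different tags and the same ratio. In GRCh38 the start they were named for lies 62222 to 63568 bp downstream of the 3 RefSeq starts of NRIP1, and the next region upstream of these 2 was 412 kb away.

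TGM2 had 1 intronic region (chromosome 20, 36772287 to 36772827), 10313 bp upstream of the start of a retained-intron transcript. With 41 MACS tags and a tagcount of 31 it had the lowest ratio of the 9, 1.32 (0.809 to 2.18). This was at percentile 10.2 of enhancer-list regions, and the interval includes 1. TGM2 and MEIS2 had nearly the same MACS tags and stood at opposite ends of the ratios.

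**Figure D1:**
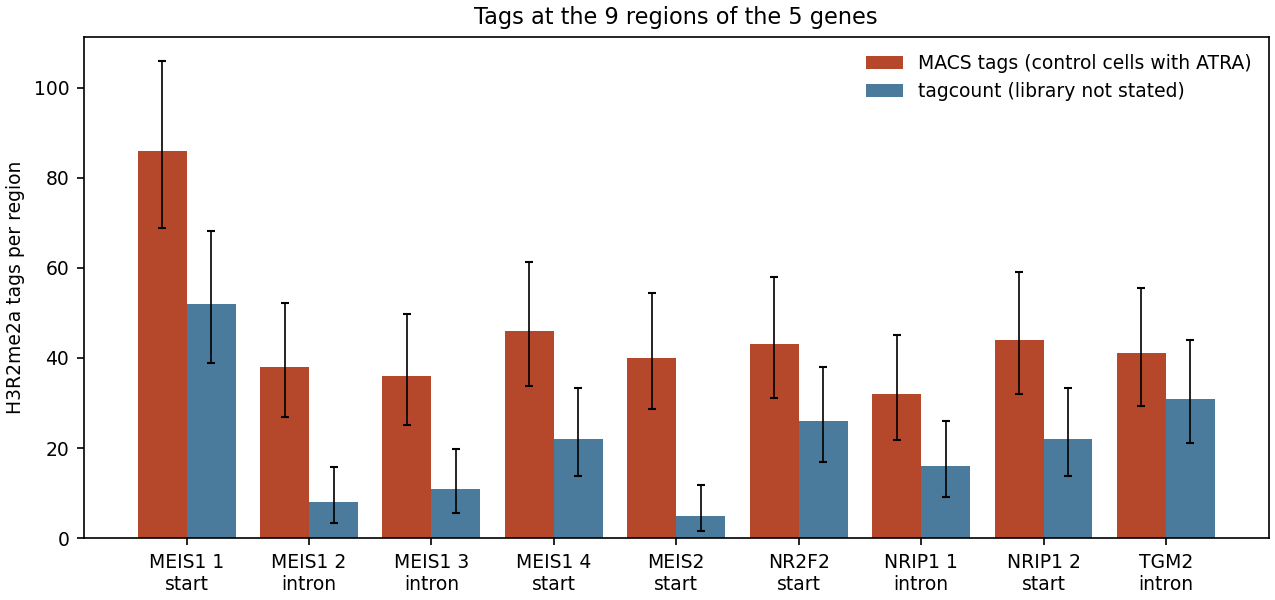
H3R2me2a tags per region (y axis) at the 9 regions of the 5 genes (x axis, regions of a gene numbered by position), as MACS tags with ATRA and as tagcount, whose library is not stated. Bars are single counts with exact 95% Poisson intervals. The first MEIS1 region stands highest in both columns (86 and 52), and MEIS2 and the intronic MEIS1 regions have the lowest tagcount (5, 8 and 11).

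Across the 9 regions, MACS tags ran from 32 to 86 (median 41, against 50 in cluster III). All but the one at the MEIS1 start were below the cluster III median, as were 49.2% of cluster III regions. Tagcount ran from 5 to 52, with a median of 22 against 24. On the scale of log2((MACS tags + 1)/(tagcount + 1)), the 9 values ran from 0.39 to 2.77 with a median of 0.97. The median was 1.02 over cluster III, 0.80 over its promoter list and 1.36 over its enhancer list. There were 4 regions above the cluster III median and 5 below. The 8 enhancer-list regions had a median of 1.00, lower than the 1.36 of their list, and 5 of them were below it.

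A ratio of at least 4-fold, with 1 added to each count, was reached at 2 of the 9 regions (22.2%, interval 2.81 to 60.0), those of MEIS2 (log2 ratio 2.77) and the first MEIS1 intron (2.12). It was reached at 15.8% of cluster III regions, at 26.3% of those in the enhancer list and at 0.997% of those in the promoter list. The share at the 5 genes, where 8 of 9 regions are in the enhancer list, was near the first 2 of these backgrounds. In order of ratio, MEIS2 was followed by the intronic MEIS1 regions, the last MEIS1 region, both NRIP1 regions, the MEIS1 start, NR2F2 and TGM2. The intervals of neighbours in this order overlapped.

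**Figure D2:**
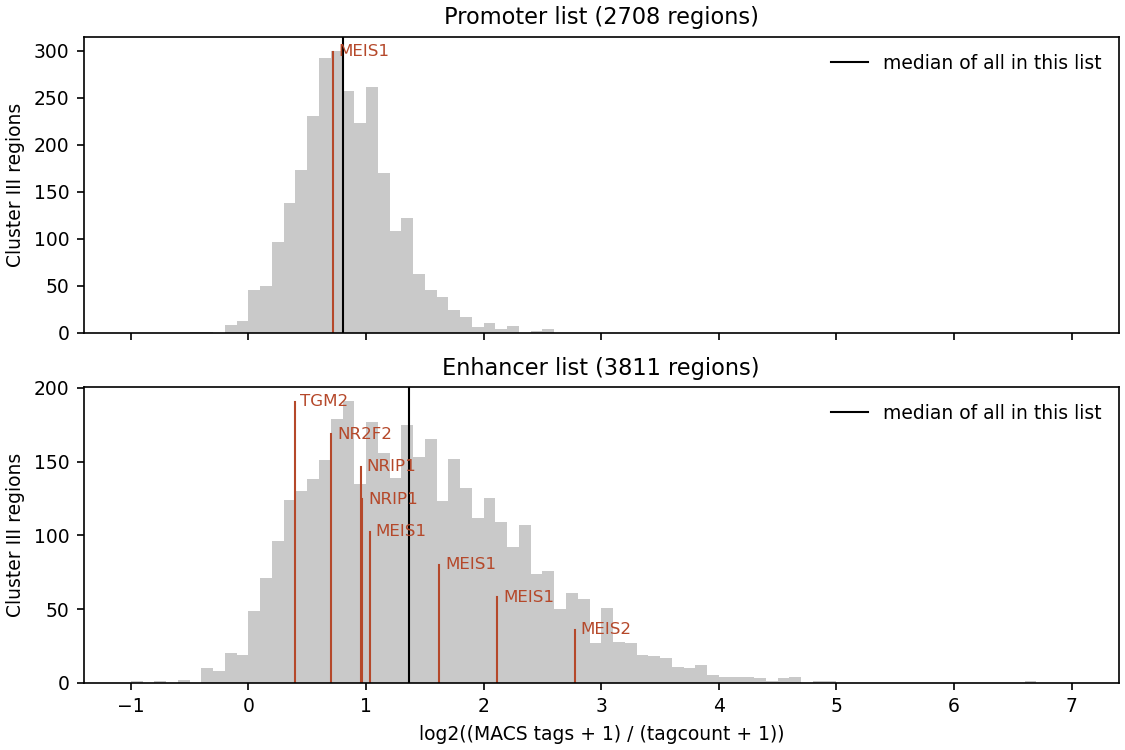
Number of cluster III regions (y axis) by log2((MACS tags + 1)/(tagcount + 1)) (x axis) in the promoter list (2708 regions) and the enhancer list (3811 regions). Red lines mark the 9 regions at heights chosen for legibility, and black lines mark the list medians of 0.80 and 1.36. The enhancer-list regions of the 5 genes spread from 0.39 (TGM2) to 2.77 (MEIS2), on both sides of the median.

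Other genes were named for 6 regions within 100 kb of those above, all in cluster III, as are 73.9% of all regions. MEIS1 had 3 of these, 1 named AC092669.3, 28.9 kb before its first region (34 MACS tags, tagcount 15), and 2 named AC007392.3, 64.8 and 68.5 kb beyond its last (38 and 19, and 57 and 28). With them, 7 regions, all in cluster III, lay along 174 kb of chromosome 2. The nearest cluster II region was 1300 kb away, at RAB1A.

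The neighbour of MEIS2 resembled it in both columns. A region named RP11-122D10.1, 8.48 kb from that of MEIS2 (chromosome 15, 37180224 to 37180666), had 36 MACS tags and a tagcount of 7, a ratio of 5.14 (2.26 to 13.7). Counted with its neighbour, the MEIS2 locus had 2 regions, both at or above 4-fold. Both were in the enhancer list, where 26.3% of cluster III regions reached 4-fold. Of the 6 neighbouring regions within 100 kb of the 5 genes, this was the only 1 to reach it.

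Around NR2F2 the strongest region was named for its antisense gene. The NR2F2-AS1 region (chromosome 15, 96807632 to 96808593), in an intron 65.9 kb from that of NR2F2, had 89 MACS tags and a tagcount of 29, a ratio of 3.07 (2.0 to 4.84). A region named MIR1469, 8.9 kb on the other side of NR2F2, had 32 and 19 (ratio 1.68, 0.926 to 3.14). NR2F2-AS1 thus had more MACS tags than NR2F2 in a wider region, and per length they were close, at 92.5 and 95.8 MACS tags per kb.

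NRIP1 and TGM2 stood alone by comparison. No other region lay within 100 kb of either. The nearest were 412 kb from NRIP1 (AJ006998.2) and 110 kb from TGM2 (RPRD1B).

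**Figure D3:**
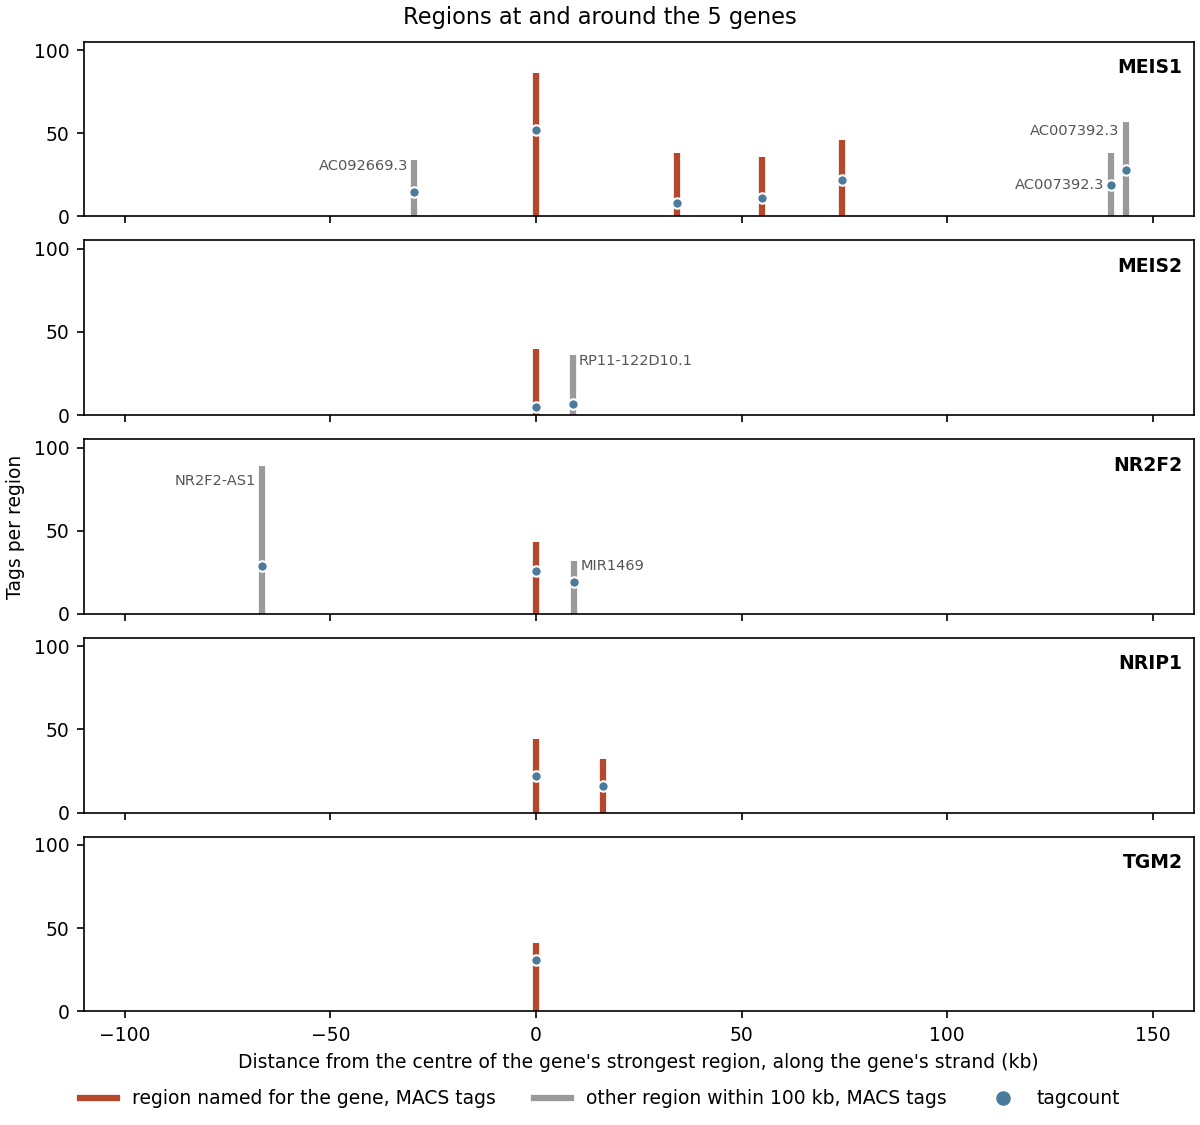
Tags per region (y axis) against distance in kb from the centre of each gene's strongest region, along the gene's strand (x axis), for the 5 genes. Red bars are MACS tags of regions named for the gene, grey bars those of the 6 other regions within 100 kb, and points are tagcount. MEIS1 has 4 regions along 75.2 kb, MEIS2 and NR2F2 each have a neighbour within 10 kb, and NRIP1 and TGM2 have no other region in the window.

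Relatives and partners of the 5 genes were read from lists drawn up with earlier results of these data known. Of 20052 RefSeq protein-coding genes, 23.2% were named for a region, by symbol or synonym. The 4-fold ratio was reached at 15.8% of cluster III regions, as above. This share was 26.3% in the enhancer list and 0.997% in the promoter list, and the gene lists hold regions of both. Of 17 TALE homeodomain genes 6 were named, with 9 regions in cluster III and 2 in cluster II. MEIS1 and MEIS2 are among them and were selected on having regions. Without them 4 of 15 were named, with 4 regions in cluster III and 2 in cluster II. PKNOX2, a MEIS relative, had 2, the stronger with 74 MACS tags and a tagcount of 9 (log2 ratio 2.91). The cluster II regions were at TGIF2 and at MKX, the latter with a tagcount of 404. MEIS3 was not named. The median log2 ratio of the 9 cluster III regions was 1.47, and 3 of them reached 4-fold, 1 each at PKNOX2, MEIS1 and MEIS2. Without MEIS1 and MEIS2, 4 cluster III regions remained, with a median of 1.38, and 1 of them reached 4-fold.

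Of 9 NR2 family receptors, NR2F2 and NR2F6 were named. NR2F6 had a promoter-list region with 97 MACS tags and a tagcount of 33 (log2 ratio 1.53). Of 17 nuclear receptor coregulators 4 were named. HDAC1 and CREBBP had 1 promoter-list region each in cluster III, and NCOA3 had 1 in cluster II. Of 9 transglutaminase family genes, TGM2 and TGM6 were named, the latter 30819 bp upstream of its start (57 MACS tags, tagcount 22). Without the members, 1 of 8 NR2 family receptors, 3 of 16 coregulators and 1 of 8 transglutaminase family genes were named.

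Of 23 genes of retinoid receptors, uptake, binding and metabolism 8 were named, with 15 regions in cluster III (median log2 ratio 1.38) and 3 in cluster II. Of those 15, 4 reached 4-fold. STRA6, the retinol uptake receptor gene, had 4 regions, 3 in cluster III and 1 in cluster II. Its cluster III region with most MACS tags had 127 and a tagcount of 44 (log2 ratio 1.51). Tagcount reached 121 among the 4. Of 39 HOX genes, whose proteins bind DNA with MEIS, 8 were named. They had 14 regions (median 1.57), of which 2 reached 4-fold. All 14 were in cluster III, as are 73.9% of all regions. HOXA3, HOXA2 and HOXB1 had 3 each, and their strongest regions had log2 ratios of 1.80, 1.57 and 2.17. The median of the 5 genes (0.97) was lower than the retinoid and HOX medians and those of the TALE (1.47) and NR2 (1.12) lists. It was higher than those of the coregulators (0.87) and the transglutaminase family (0.86). The last 4 medians include the members, and without TGM2 the transglutaminase value rests on 1 region (1.33). The lists mix promoter and enhancer regions in different shares, and the differences were not tested.

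**Figure D4:**
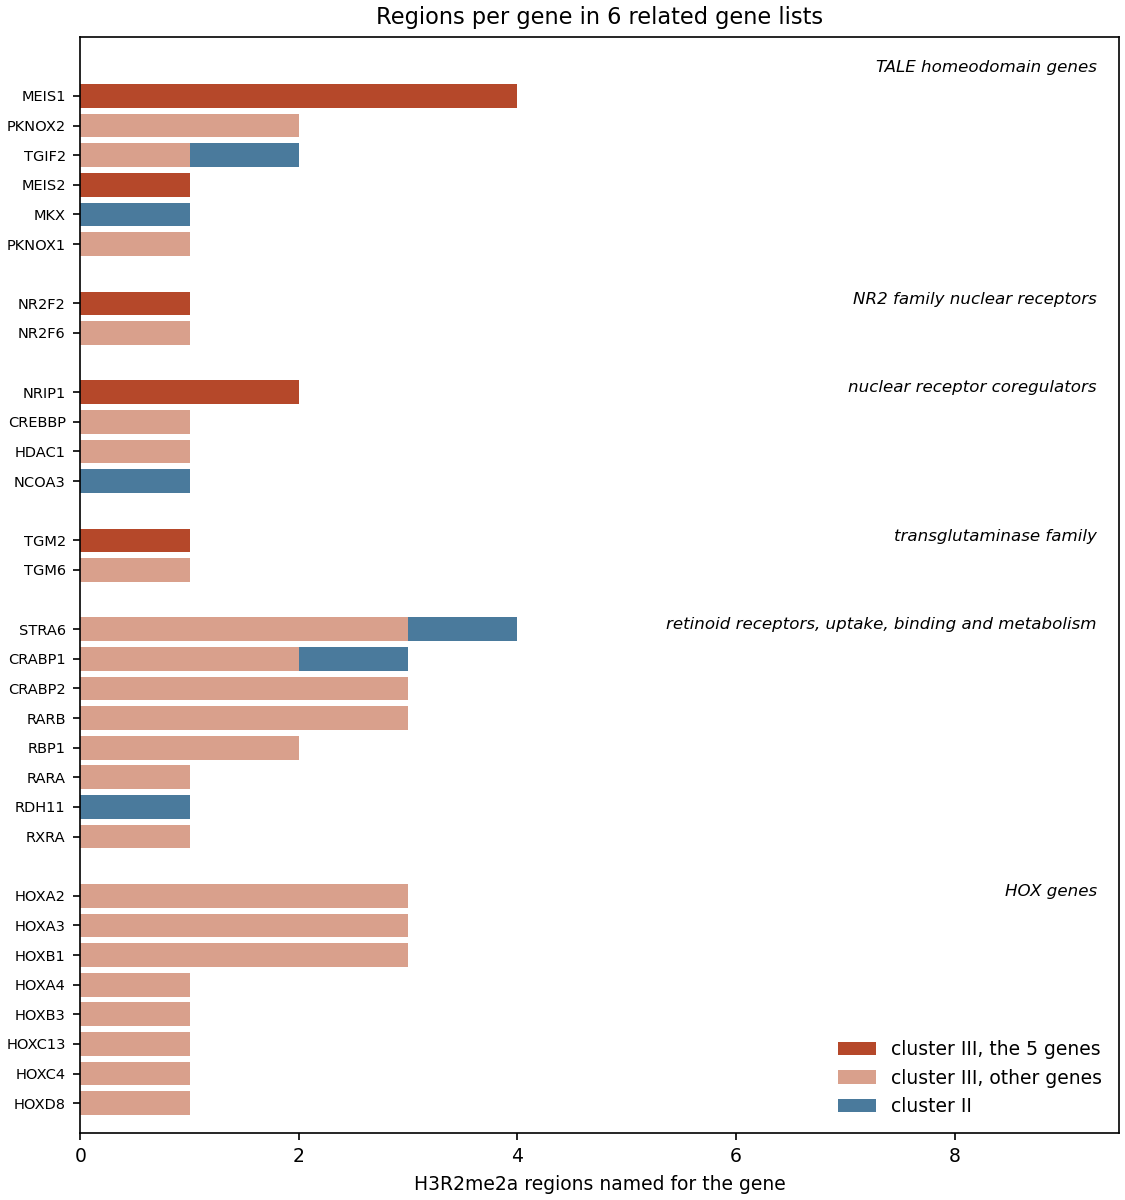
Number of H3R2me2a regions named for each gene (x axis) among named genes of 6 related lists (y axis). Red bars are cluster III (dark for the 5 genes) and blue bars are cluster II. MEIS1 and STRA6 have 4 regions each, the most among these genes, and MEIS2, NR2F2, NRIP1 and TGM2 have 1 or 2.

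Regions with nearly the same pair of counts were sought at other genes, whose relation to the 5 genes was not examined. The pair was compared by Euclidean distance in log2(MACS tags + 1) and log2(tagcount + 1) over those 2 columns, within cluster III and the same list. The nearest to the MEIS1 start region were the promoters of HDGF (85 MACS tags, tagcount 52) and XRCC5 (87 and 51). Exactly the counts of MEIS2 were found at 8 other regions, RP11-184A2.3 and GFRA1 among them. Those of the stronger NRIP1 region were found at 5, with PTPRF and MIR4472-2 first by position, and those of TGM2 at 3, including PKMP1 and RNU7-144P. GPR139 had the counts of NR2F2, and FAM110D came next (44 and 26).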

How the data were processed

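The deposited lists give enriched H3R2me2a regions of control NT2/D1 cells. Bowtie2, MACS 1.4, deepTools and bcl2fastq on hg19 are named in the submitters' processing notes, without roles. Per the file headers, the deposited values are raw counts of tags in each region (MACS tags, tagcount), and distances, lengths and summit offsets in base pairs. The making of clusters and lists and the sequencing depth are not given in those sources.

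The lists were merged by identical coordinates. Regions whose nearest gene was MEIS1, MEIS2, NR2F2, NRIP1 or TGM2 were kept. Over 1844 pairs of regions sharing a transcript, distances rose along the strand, so positive values lie downstream of the start. Log2 ratios, the percentiles of ratios and the fold limits used a pseudocount of 1. Ratios given with an interval are of the raw counts. Intervals of counts, ratios and shares are exact (Poisson, conditional binomial, Clopper-Pearson). No p-values were computed. Interval coverage was tested on simulated data. GENCODE 44 gave transcript types, and offsets between starts were taken within GRCh38. Python 3.11.15, pandas 2.3.3 and scipy 1.17.1 were used.

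Members and lists were chosen with earlier results of these data known. A few genes of these lists are not reported here. The text names every region of the 5 genes, other genes within 100 kb, examples from the lists by number of regions and then MACS tags, and the 2 regions most alike per gene. Alternatives varied distance, assignment, strength, pseudocount, scaling, fold and the genes included.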

Additional observations from a re-analysis of the deposited data

How the results depend on the processing

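No paired analysis was possible because there was 1 library per condition, and no replicate could be left out. The farthest of the 9 regions lay 14781 bp from the start named, so a limit of 50 kb could remove none. The count of 9, all in cluster III, and the split of 8 enhancer-list and 1 promoter-list regions were therefore fixed under that limit. Within 5 kb 5 remained, 4 of them in the enhancer list. Taking all regions within 100 kb gave 15, of which 4 were in the promoter list. At or above the cluster median of MACS tags there was 1 region, with 0 in the enhancer list. Without the MEIS1 regions there were 5, all in the enhancer list, and 0 in the promoter list.

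The median log2 ratio of 0.97 ranged from 0.86 to 1.03 with other pseudocounts and with each gene left out. It was -0.048 after centring on all cluster III regions, a shift of 1.02, and 0.17 after centring on the promoter list, a shift of 0.80. Relative to these, 5 and 3 of the 9 regions were below. The 2 regions at or above 4-fold became 1 with a pseudocount of 5 (MEIS2), 1 without the MEIS1 regions and 1 without the MEIS2 region, an alternative added after seeing the data. There were 0 after either centring, which lowers all regions alike and left 3.3% and 4.72% of cluster III regions at or above 4-fold. With 1 added to each count, there were 4 at 2-fold, against 51.6% of cluster III regions, and 0 at 8-fold, against 3.44%. The NRIP1 regions (raw ratio 2.0) and the MEIS2 region (8.0) fell below these limits because 1 was added. Within 5 kb of a start, 0 transglutaminase genes and 0 non-coding transcripts beside the 5 genes were named. Counts of 5 to 86 tags per region limit the precision of every ratio.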

Other observations

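Tags per length split the regions of the 5 genes by position. The 4 intronic regions had 64.3 to 78.0 MACS tags per kb, and the 5 in start windows had 94.8 to 107. The lowest was the first MEIS1 intron, at percentile 0.046 of cluster III, and TGM2 (75.8), the second MEIS1 intron (76.9) and the NRIP1 intron (78.0) were at percentiles 5.94, 7.38 and 9.36. Under 80 MACS tags per kb lay 4 of the 4 intronic regions, against 11.8% of cluster III regions in introns, and 0 of the 5 in start windows, against 14.2%. The limit of 80 was chosen after the values were seen, and the split is a description of 9 regions in 1 library. Over all of cluster III, introns and start windows had similar medians of 98.3 and 95.8 MACS tags per kb.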
